A study of Mus musculus with 75 samples.

Results

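The neutrophil granule genes described here are 10 mouse genes: Mpo, Prtn3, Elane and Ctsg of the primary granules, Ngp, Camp, Ltf and Lcn2 of the secondary granules, and S100a8 and S100a9 of the mature cell. They were taken by gene symbol from the deposited expression tables, with 1 row each, and make up 10 of the 20644 genes of the tissue table and 9 of the 16925 genes of the parabiosis table. Ctsg in the parabiosis table is not analysed here. The rule that picks them goes by gene symbol and sets no cut on a measured value, but the 10 genes were chosen with earlier results of these data known.

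Neutrophils are short-lived white cells that are made in the bone marrow and enter tissues through the blood. Their granules are filled in sequence as the cell matures. Promyelocytes transcribe the primary granule genes, which encode the peroxidase Mpo and the serine proteases Prtn3, Elane and Ctsg, and switch them off before the cell leaves the marrow. Myelocytes and metamyelocytes transcribe the secondary granule genes, among them Camp, the precursor of the antimicrobial peptide cathelicidin, and the iron-binding Ltf and Lcn2. The calcium-binding pair S100a8 and S100a9 stays abundant in the circulating cell. The spleen of the mouse, unlike that of healthy adult humans, keeps some blood formation in adult life.

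The aged group was made up of untreated wild-type (WT) C57BL/6 mice of 22 months and the young group of untreated wild-type C57BL/6 mice of 3 months. RNA was sequenced from whole bone marrow, spleen, 3 lymph node sites, thymus, lung, liver, colon, hippocampus and choroid plexus, with 2 or 3 mice per age and tissue, 63 libraries in all. The choroid plexus was also sequenced from 11 surgically joined C57BL/6 mice: 2 old and 3 young mice of heterochronic pairs (each sharing a circulation with a mouse of the opposite age group), and 3 old and 3 young mice of isochronic pairs (partner of the same age). Old parabionts were 22 months and young parabionts 3 months of age. All mice had been perfused with saline before the organs were taken, bone marrow was flushed from tibia and femur, and the labels do not give the sex. RNA of the choroid plexus was extracted with another kit than that of the other organs. The samples were whole tissue, so a change in the number of cells of a type and a change in RNA per cell cannot be told apart. Values are the authors' normalized read values per gene, in which 1 read was worth between 0.527 and 2.19, and the tissue libraries held between 187683 and 1134152 reads over named genes.

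Several libraries of young mouse 2 held genes of another organ. Lung marker genes summed to 37447 in the spleen library of young mouse 2, against 201 and 206 in the spleens of young mice 1 and 3. Liver markers summed to 71803 in its lung library, against 50.8 and 54.9 in the other young lungs, and colon markers to 7776 in its mesenteric node library, against 12.2 and 21.5. Its hippocampus, liver and cervical node libraries carried B cell, T cell and hippocampus markers in the same way. Among the aged mice, the inguinal node library of mouse 3 had a fat cell marker sum of 33570, against 424 and 462 in aged mice 1 and 2. Where leaving out such a library changed a call, both values are given. In cervical and inguinal nodes, liver and hippocampus none of the 10 genes was called without it either.

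All 10 genes were highest in bone marrow, and spleen ranked second by median for 8 of them. S100a9 had a lowest, median and highest value of 24005, 33120 and 33734 in the 5 marrow libraries, S100a8 of 17078, 19153 and 24046, and Ngp of 7691, 9807 and 12853. Camp, Lcn2 and Ltf had marrow medians of 5949, 4560 and 3394. The primary granule genes had marrow medians of 1683 for Mpo, 1418 for Elane, 1112 for Prtn3 and 418 for Ctsg. For each gene the lowest marrow library lay above the highest library of every other tissue. Levels are compared here only within a gene, since the values are not scaled to transcript length. Outside the marrow, 58 libraries had a median Mpo value of 1.25, with 17 of them at 0, and a median Ctsg value of 0, with 32 at 0. Ngp had a median of 6.40 there and S100a8 a median of 27.6. After spleen, most tissues had overlapping ranges and took no order: lung came next after spleen for S100a8, with a median of 132 and a range of 45.1 to 198, and for Ltf, with a median of 24.0 and a range of 10.5 to 58.3 that lay above every cervical node library. Lcn2, an iron-carrier protein that many epithelia and the liver also make, had its second highest median in lung, at 159 over a range of 83.4 to 303, with spleen at 70.5 and liver at 67.2 next in order and overlapping it.

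Ngp and Camp of the secondary granules and Mpo and Prtn3 of the primary granules were far higher in the spleens of aged than of young mice, while none of the 10 passed the test in marrow. Ngp, a secondary granule protein, was 152, 282 and 248 in the spleens of aged mice 1, 2 and 3, and 12.7, 6.40 and 3.93 in the spleens of young mice 1, 2 and 3. Every aged spleen stood above every young spleen for this gene, a 29.6-fold difference of the means (227 ± 67.3 in aged and 7.68 ± 4.52 in young spleens, SD, n = 3 each). The difference was 4.80 ± 0.37 (SE) on the log2(value + 1) scale, with a limma adjusted p of 8.93e-05 over all 10462 genes tested. Camp had 60.8, 138 and 144 in aged spleens and 5.29, 2.40 and 3.93 in young spleens, again with no overlap. Its difference was 4.51 ± 0.39 log2 (limma adjusted p 0.000124), and the ratio of the means was 29.5.

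Mpo and Prtn3 of the primary granules were also called higher in aged spleen, and Ctsg and Elane were not. Mpo was 34.4, 51.6 and 54.6 in aged spleens and 3.17, 1.60 and 1.96 in young spleens, where these values stand for only a few reads. The aged values all lay above the young ones, by 3.88 ± 0.39 log2 (limma adjusted p 0.000529). Prtn3 was 15.9, 41.5 and 34.2 in aged spleens and 1.06, 1.60 and 0.982 in young spleens, a difference of 3.74 ± 0.48 log2 (limma adjusted p 0.00452). Ctsg had the same order, with 7.93, 17.6 and 12.6 in aged spleens against 2.12, 0 and 0.982 in young spleens, but its 2.84 ± 0.62 log2 did not pass (limma adjusted p 0.154). The pseudocount of 1 understates the differences of these low genes.

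S100a8 and S100a9, the transcripts of mature cells, were also called higher. S100a8 was 297, 463 and 320 in aged spleens and 83.6, 81.6 and 101 in young spleens, a difference of 1.99 ± 0.25 log2 (limma adjusted p 0.00364). S100a9 was 361, 565 and 532 in aged spleens and 144, 157 and 124 in young spleens, a difference of 1.75 ± 0.25 log2 (limma adjusted p 0.00974). No library of either age overlapped the other for these genes.

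Ltf and Lcn2 depended on the lung-marked spleen library of young mouse 2. Ltf was 42.3, 64.2 and 95.9 in aged spleens and 5.29, 20.0 and 4.91 in the spleens of young mice 1, 2 and 3. Lcn2 was 63.5, 115 and 93.5 in aged spleens and 3.17, 77.6 and 9.82 in those of young mice 1, 2 and 3. With all 6 libraries, Ltf differed by 2.82 ± 0.49 log2 (limma adjusted p 0.0559) and Lcn2 by 2.54 ± 1.14 log2 (limma adjusted p 0.545). Without young mouse 2 both passed, Ltf at 3.41 log2 (limma adjusted p 6.48e-06) and Lcn2 at 3.73 log2 (limma adjusted p 1.34e-05), and Ctsg had 2.40 log2 with a limma adjusted p of 0.04999, just inside 0.05.

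In all, 6 of the 10 genes were called higher in aged spleen and none lower. Of all genes tested, 15 were called higher, which is 0.143%, and 3 lower (0.0287%). The libraries of the 2 ages did not overlap for 8 of the 10 genes, all higher in the aged spleens, against 8.80% of all genes tested that were higher and 7.41% that were lower without overlap. The median difference over the 10 genes was 2.83 log2, beside 0.014 over all genes tested. Mpo, Prtn3, Ctsg, Ngp, Camp and Lcn2, 6 of the 10, entered the test only because of the aged libraries, since they reached the minimum value in too few young spleens. Without any minimum, 6 genes were also called. Leaving out young mouse 2 raised the number called to 9, with Elane the exception, and the share of all genes called to 0.446% higher and 0.112% lower, and leaving out aged mouse 2 or 3 lowered it to 4.

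**Figure D1:**
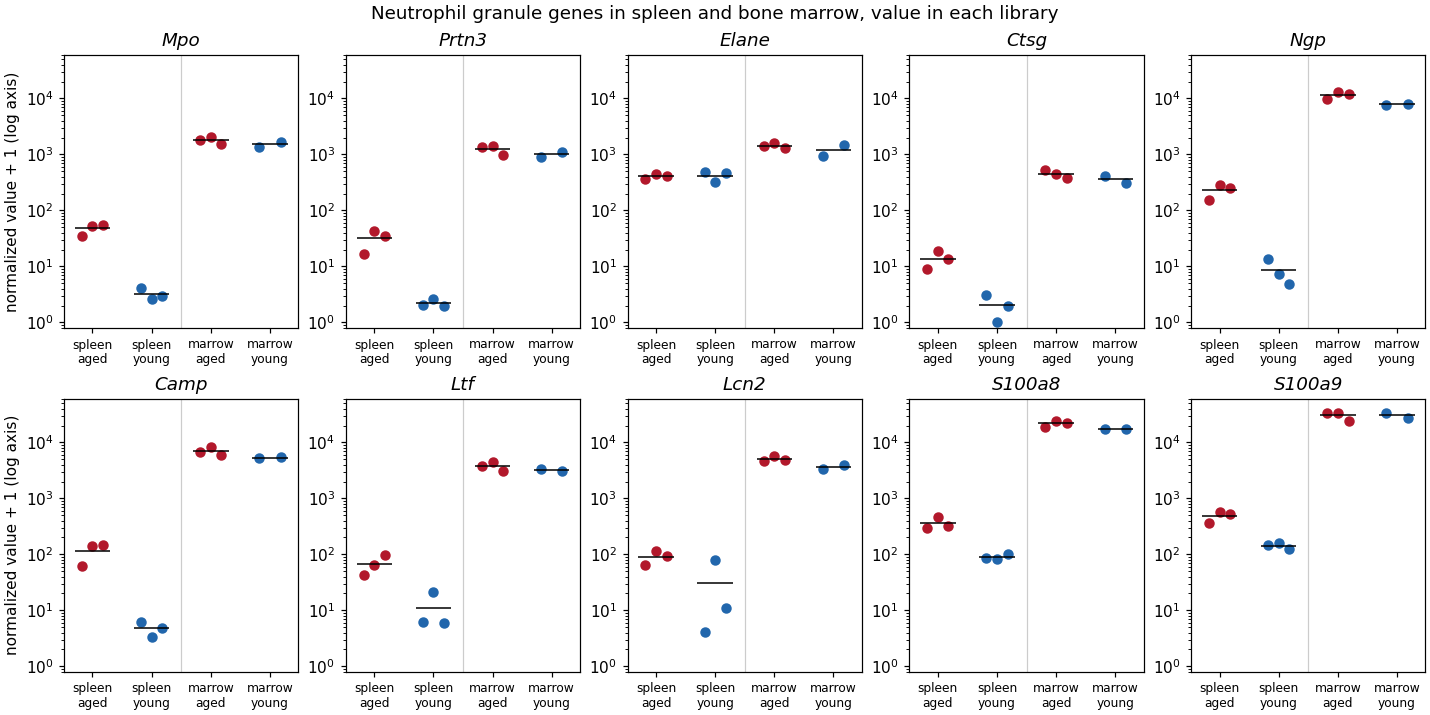
Normalized value plus 1 (log axis) of each of the 10 genes in every spleen and bone marrow library, aged in red on the left of young in blue, with the group mean as a line. Ngp was 152 to 282 in aged spleens and 3.93 to 12.7 in young spleens, while Elane overlapped between ages in both tissues.

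Set against the marrow of the same animal, the aged spleens carried the 9 genes other than Elane at a few percent or less. In aged mouse 1 the 9 genes other than Elane stood at 0.892% to 1.87% of their marrow value, with a median of 1.39%. In aged mouse 2 they stood at 1.42% to 3.87%, with a median of 2.00%, and in aged mouse 3 at 1.43% to 3.59%, with a median of 2.42%. In young mouse 3 the same genes stood at 0.0491% to 0.582%: Ngp at 0.0491% and Camp at 0.0709%, but S100a8 at 0.582%. In young mouse 2, whose spleen library carried lung markers, the 9 genes stood at 0% to 2.34%, with a median of 0.175%. The 2.34% was that of Lcn2, which stood at 1.39%, 2.00% and 1.95% in aged mice 1, 2 and 3. The spleen of young mouse 1 has no marrow value used here.

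**Figure D2:**
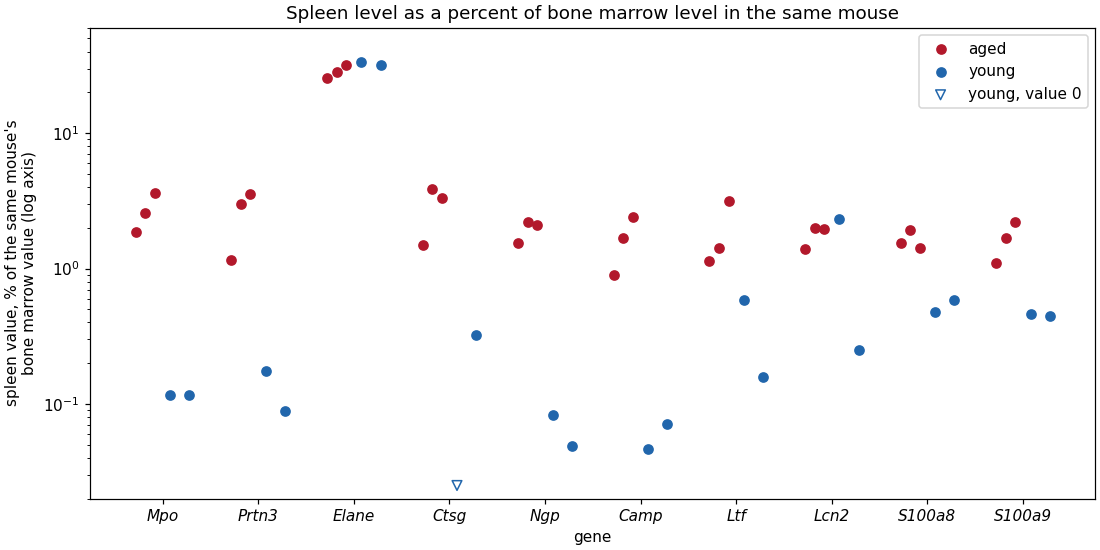
Spleen value as a percent of the marrow value of the same mouse (log axis) for each gene, with 3 aged mice in red left of 2 young mice in blue, and the open triangle for a spleen value of 0. Aged points lie between 0.892% and 3.87% for all genes but Elane, which stands at 25.4% to 31.9% in aged and 32.1% to 33.3% in young mice.

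The ratio of S100a8 to Ngp, a transcript of the mature cell against one of the secondary granules, lay apart between the ages in spleen. The log2 ratio of S100a8 to Ngp, each plus 1, was 0.37 to 0.96 in aged spleens and 2.63 to 4.37 in young spleens, with no overlap. The lung-marked spleen library of young mouse 2 lay at 3.48, between those of young mouse 1 (2.63) and young mouse 3 (4.37). The part of lung RNA in its value was not tested. Aged marrow lay at 0.90 to 0.97 and young marrow at 1.12 to 1.15, so the aged spleens reached down to and below marrow values and the young spleens stood well above them. Lung, an organ that holds many mature neutrophils in its vessels, lay at 2.87 to 4.73 in aged and 3.81 to 6.16 in young mice, which overlap. Ratios near those of marrow were not particular to aged spleen, but the other tissues that follow had low Ngp. Its median was 8.27 in mesenteric nodes, 4.93 in hippocampus and 5.56 in choroid plexus. The added 1 draws ratios of such low values toward 0. Mesenteric nodes lay at 0.59 to 1.45 in aged and 0.29 to 1.57 in young mice. Hippocampus lay at 0.80 to 1.33 in aged and 0.32 to 2.39 in young mice, and choroid plexus at 0.75 to 1.22 and 0 to 1.98. The log2 ratio of Ngp to Mpo was 2.11 to 2.43 in aged spleens and 2.41 to 2.97 in aged marrow, against 0.73 to 1.71 in young spleens and 2.25 to 2.48 in young marrow. In young spleens both terms of that ratio rest on few reads. The other secondary granule genes were set against S100a8 in spleen after these values were seen. The log2 ratio to Camp was 1.15 to 2.27 in aged and 3.75 to 4.60 in young spleens, without overlap. The ratios to Ltf (1.73 to 2.83 in aged and 1.98 to 4.11 in young spleens) and to Lcn2 (1.76 to 2.21 in aged and 0.072 to 4.34 in young spleens) overlapped, and in both the lowest young value was that of the lung-marked library of young mouse 2.

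**Figure D3:**
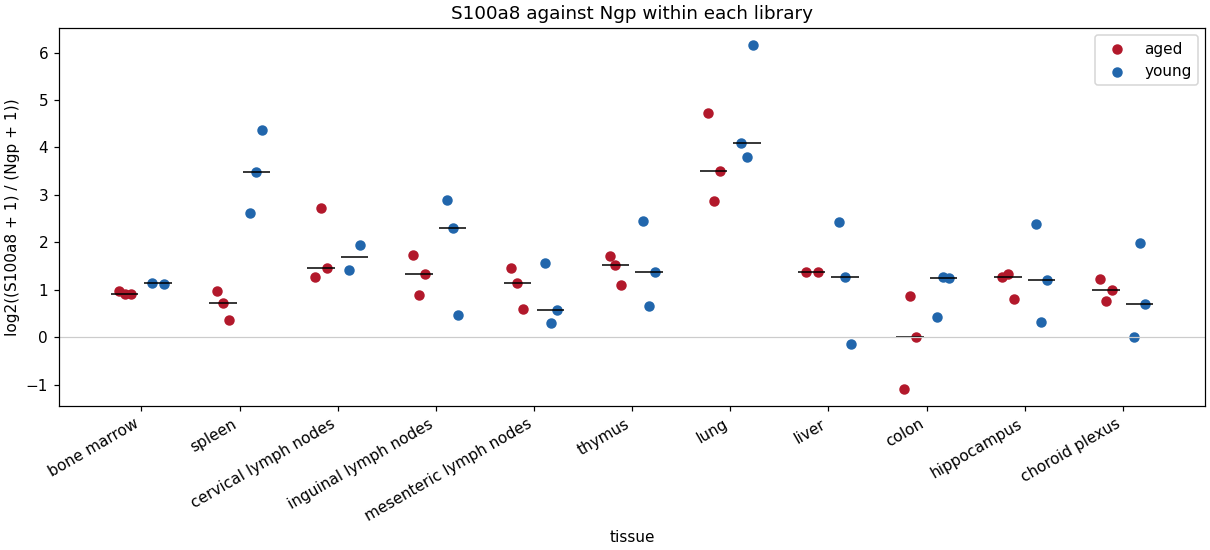
Log2 ratio of S100a8 to Ngp (each value plus 1) in every tissue library, aged in red left of young in blue, with the group median as a line. Aged spleens (0.37 to 0.96) lie beside or below bone marrow. Young spleens lie above marrow, at 2.63, 3.48 (the lung-marked library of young mouse 2) and 4.37. Mesenteric nodes, hippocampus and choroid plexus also overlap the marrow values, at both ages, but on low Ngp values that the added 1 draws toward 0.

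On GRCm38.p6, RefSeq places Ngp at chromosome 9, 110419808 to 110423012, Camp at chromosome 9, 109847377 to 109849456, and Ltf at chromosome 9, 111019292 to 111042766. Mpo lies at chromosome 11, 87793784 to 87804412, Prtn3 and Elane side by side on chromosome 10 from 79879667 to 79883174 and from 79886312 to 79888216, and Ctsg at chromosome 14, 56099885 to 56102574. S100a8 and S100a9 are neighbours on chromosome 3, from 90669071 to 90670034 and from 90692630 to 90695721, and Lcn2 lies at chromosome 2, 32384637 to 32387739.

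The promoters of Ngp, Camp, Mpo and Prtn3, the genes with the largest differences in spleen, are shown because these genes moved together while belonging to 2 granule classes. Each runs from 250 bases before to 50 bases after the start of transcription in RefSeq, build GRCm38.p6, and all 10 genes had a match by symbol in that table. Capitals mark matches on either strand to TTGCNNAA, a form bound by C/EBP factors, to GAGGAA, a core of PU.1 sites, and to TGTGGT, a core of RUNX sites.
Ngp promoter, chr9:110419558-110419857 (+): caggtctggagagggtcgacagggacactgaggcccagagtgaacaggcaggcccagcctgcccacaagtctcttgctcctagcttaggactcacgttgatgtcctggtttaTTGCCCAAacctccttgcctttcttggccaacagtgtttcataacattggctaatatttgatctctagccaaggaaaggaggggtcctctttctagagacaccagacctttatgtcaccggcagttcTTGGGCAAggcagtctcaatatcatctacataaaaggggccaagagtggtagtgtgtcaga
Camp promoter, chr9:109849407-109849706 (-): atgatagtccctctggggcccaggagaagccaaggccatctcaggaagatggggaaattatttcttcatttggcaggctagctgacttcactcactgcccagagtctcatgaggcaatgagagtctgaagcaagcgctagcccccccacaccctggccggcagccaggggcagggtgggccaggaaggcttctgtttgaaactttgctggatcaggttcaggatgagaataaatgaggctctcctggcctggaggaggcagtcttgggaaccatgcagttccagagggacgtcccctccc
Mpo promoter, chr11:87793534-87793833 (+): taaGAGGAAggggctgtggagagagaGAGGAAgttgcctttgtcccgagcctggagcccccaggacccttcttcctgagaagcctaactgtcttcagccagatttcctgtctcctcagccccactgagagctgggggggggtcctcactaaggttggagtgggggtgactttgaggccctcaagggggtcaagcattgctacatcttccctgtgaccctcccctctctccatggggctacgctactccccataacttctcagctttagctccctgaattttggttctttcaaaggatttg
Prtn3 promoter, chr10:79879417-79879716 (+): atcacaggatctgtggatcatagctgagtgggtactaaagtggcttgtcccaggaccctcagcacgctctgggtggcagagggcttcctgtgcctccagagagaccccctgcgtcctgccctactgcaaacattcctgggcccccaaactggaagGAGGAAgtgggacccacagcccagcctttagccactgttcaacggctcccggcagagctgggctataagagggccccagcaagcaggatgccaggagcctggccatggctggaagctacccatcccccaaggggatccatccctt
The Ngp window held 2 matches to TTGCNNAA, Mpo 2 and Prtn3 1 to GAGGAA, and Camp none to any of the 3. No match says only that these letters are not in the window. Over all 10 genes, 4 windows held TTGCNNAA, 7 held GAGGAA and 3 held TGTGGT, while 10.8%, 28.3% and 16.9% of all 27025 promoters of that length did. A match to these letters is a description and not a binding site. No overlap between different motifs occurred in the 4 windows shown.

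In bone marrow none of the 10 genes was called, of 9991 genes tested with 4 called higher (0.0400%) and 1 lower (0.0100%). At an unadjusted p under 0.05, 3 of the 10 and 653 of all genes passed. Ngp was 9807, 12853 and 11883 in the marrow of aged mice and 7691 and 7997 in that of young mice 2 and 3. The aged values lay above the young ones, by 0.54 ± 0.17 log2 (limma adjusted p 0.516). Lcn2 also stood apart, with 4560, 5722 and 4786 in aged marrow and 3322 and 3908 in young marrow, at 0.47 ± 0.18 log2 (limma adjusted p 0.650). Camp and S100a8 had log2 differences of 0.38 and 0.34 (limma adjusted p 0.747 for both), and S100a9 one of -0.027 (limma adjusted p 0.994). The ages did not overlap for 4 of the 10 genes, all higher in aged marrow, a share to be read against 12.0% of all genes tested that were higher and 9.87% that were lower without overlap. The median over the 10 genes was 0.31 log2 and that over all genes 0.028. B cell markers summed to 215 to 355 in aged marrow and 470 to 630 in young marrow, and all 11 tested had lower means in aged marrow (median -0.88 log2, none called). Their part in the marrow values was not tested.

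The difference between the age effect in spleen and that in marrow was tested in 1 model over the 63 libraries of all organs, in which each mouse had its own term. None of the 10 genes passed, nor did any of the 16063 genes tested (0.00% called higher), although 709 genes and 7 of the 10 had an unadjusted p under 0.05. The age effect of Camp was 3.96 ± 0.82 log2 larger in spleen than in marrow (limma adjusted p 0.0851), that of Ngp 4.25 ± 0.91 (limma adjusted p 0.112) and that of Mpo 3.61 ± 0.88 (limma adjusted p 0.344). The number called changed with the libraries in the fit, and the reason was not tested. With the spleen and marrow libraries alone, 7 of the 10 passed, among them Ngp at 4.65 ± 0.31 log2 (limma adjusted p 4.91e-08), and Elane, Ltf and Lcn2 did not. In that fit 0.186% of all genes were called higher and 0.296% lower. The age effect in the 3 lymph node sites against that in marrow gave no call among the 10 genes (0.00% of all genes called higher), where 1 of the 10 and 603 of all genes had an unadjusted p under 0.05.

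In mesenteric lymph nodes, which drain the gut, S100a9 was called higher in aged mice. S100a9 was 98.6, 44.9 and 77.5 in aged nodes and 8.43, 13.2 and 5.85 in young nodes, a difference of 2.87 ± 0.37 log2 (limma adjusted p 0.0106). Every aged library lay above every young one. S100a8 was 39.6, 29.5 and 41.1 in aged nodes and 10.3, 4.75 and 1.95 in young nodes, also without overlap, at 2.70 ± 0.45 log2 (limma adjusted p 0.0625). Ngp was 13.8, 12.8 and 27.0 in aged nodes and 2.81, 3.69 and 0.975 in young nodes, at 2.45 ± 0.49 log2 (limma adjusted p 0.117). S100a9 was the only one of the 10 called in this tissue, of 4 genes called higher in all (0.0389%) and none lower (0.00%). The call was lost without a minimum value, without the trend and with a replicate block. The ages did not overlap for 8 of the 10 genes, all higher in aged nodes, but only 4 of these 8 (Ngp, Camp, S100a8 and S100a9) were among the 6 that reached the minimum value for testing, where 9.33% of all genes tested were higher and 6.04% lower without overlap. Ngp, Camp, Lcn2 and S100a8 reached it only because of the aged libraries. Without the colon-marked library of young mouse 2, S100a8 (adjusted p 0.0221) and Ngp (adjusted p 0.0324) passed in limma as well, where 0.0936% of all genes were called higher and 0.00936% lower. Without aged mouse 1 or aged mouse 3 none passed. Erythroid markers, which would come with blood, summed to 56.5 to 216 in aged and 46.4 to 1203 in young nodes. Their part in the result was not tested.

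Cervical and inguinal nodes showed smaller differences and no call. In cervical nodes, S100a8 was 33.3, 69.5 and 42.7 in aged mice and 14.9 and 20.5 in young mice, which do not overlap (1.35 ± 0.36 log2, limma adjusted p 0.223). Here 6 of the 10 genes (5 of the 7 tested) lay higher in all aged libraries and Ctsg, untested, lower, against 13.4% and 10.5% of all genes, and 21 genes (0.188%) were called higher and 4 (0.0357%) lower; 865 genes and 5 of the 10 had an unadjusted p under 0.05. Of the 7 tested, Camp, Ltf and Lcn2 reached the minimum value in cervical nodes only because of the aged libraries. Mpo was 7.76, 2.14 and 2.25 in aged cervical nodes and 0 in both young ones. In inguinal nodes 1 gene lay higher without overlap, against 6.26% of all genes (6.64% lower), and limma called none of the 10 and no other gene (0.00%), where 482 genes and none of the 10 had an unadjusted p under 0.05. Ngp, Camp and Ltf reached the minimum value in inguinal nodes only because of the aged libraries. The fat-marked inguinal library of aged mouse 3 held 299 of Lcn2, 107 of Ltf and 23.5 of Prtn3, where the other 5 inguinal libraries held at most 15.2, 6.11 and 3.26. Mpo was 0 and Ngp 10.1 in that library, so the 3 high genes were not joined by the others.

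In lung, Ltf was 58.3, 31.2 and 51.5 in aged mice and 11.5, 16.8 and 10.5 in young mice, without overlap. It differed by 1.76 ± 0.32 log2 (limma adjusted p 0.123), and by 1.96 log2 (limma adjusted p 0.00479) without the liver-marked library of young mouse 2, where 0.245% of all genes were called higher and 0.0929% lower. Lcn2 was 165, 185 and 303 in aged lungs and 93.4, 83.4 and 154 in young lungs (0.97 ± 0.31 log2, limma adjusted p 0.331). Ngp was 6.48, 17.7 and 13.3 in aged lungs and 4.41, 2.30 and 0.808 in young lungs (1.99 ± 0.53 log2, limma adjusted p 0.292). With all libraries none of the 10 was called in lung (3 of all genes, 0.0264%, called higher), and 5 (4 of the 6 tested) lay higher without overlap, against 10.5% of all genes (6.70% lower). Ngp reached the minimum value in lung only because of the aged libraries. At an unadjusted p under 0.05, 4 of the 10 and 1196 of all genes passed. In liver, where Lcn2 is a secreted acute phase product, Lcn2 was 226 and 98.5 in aged mice and 58.0, 16.5 and 67.2 in young mice, at 1.86 ± 0.60 log2 (limma adjusted p 1.00). The 2 ages did not overlap for Lcn2 or for 4 further genes higher (only Camp of these was tested) and Elane lower, against 10.9% and 8.21% of all genes, with none called by limma (0.00935% of all genes called higher) and 1 of the 10 and 468 of all genes at an unadjusted p under 0.05. Camp reached the minimum value in liver only because of the aged libraries.

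Thymus, colon, hippocampus and choroid plexus gave no call among the 10 genes, where limma called 1.14%, 0.0942%, 0.00% and 0.267% of all genes higher and 0.0577%, 0.0188%, 0.00% and 0.0395% lower. At an unadjusted p under 0.05 these tissues had 1, 1, 0 and 0 of the 10 genes, and 1502, 1256, 353 and 611 of all genes. Some genes reached the minimum value only because of the aged libraries. These were Ngp and Lcn2 in thymus, colon and hippocampus, and Camp in thymus, hippocampus and choroid plexus. Without overlap, 2, 0, 0 and 1 of the 10 genes lay higher, none of them tested (Mpo and Prtn3 in thymus, Mpo in choroid plexus), against 11.6%, 10.3%, 6.75% and 5.33% of all genes, and none lower, against 8.49%, 6.89%, 3.52% and 6.01%. The highest Ngp values in these tissues were single libraries: 15.3 in thymus and 18.4 in colon of aged mouse 2, and 30.1 in hippocampus and 22.4 in choroid plexus of aged mouse 3. In hippocampus Ngp was 0.875, 18.5 and 30.1 in aged mice and 1.55, 6.21 and 3.64 in young mice, which overlap. The thymus library of aged mouse 2 was the shallowest, with 187683 reads and 1 read worth 2.19. Over the 10 tissues with 3 aged libraries, aged mouse 2 had the highest aged Ngp value in 7, aged mouse 3 in 3 and aged mouse 1 in none, a pattern noted after the values were seen. Ngp was the most uneven of the 10 genes in this. For the other 9, aged mouse 1 was highest in 1 to 3 tissues, aged mouse 2 in 4 to 7 and aged mouse 3 in 2 to 5. Elane was among them, with 2, 6 and 2. In aged mouse 1 the hippocampus, colon and choroid plexus held Ngp at 0.875, 3.81 and 3.84.

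**Figure D4:**
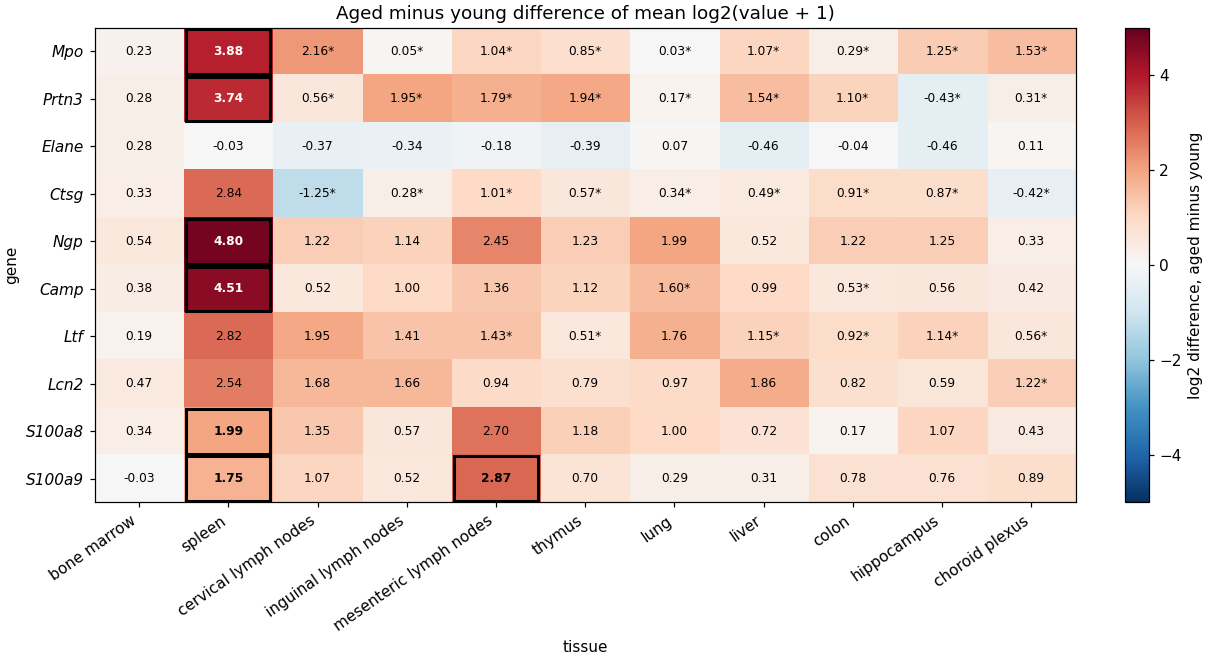
Aged minus young difference in mean log2(value + 1) for each gene in each tissue, on a scale of blue (lower in aged) to red (higher in aged). Boxed cells passed the limma test (6 in spleen, S100a9 in mesenteric nodes), and a star marks a gene under the minimum value and not tested in that tissue.

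Elane, the neutrophil elastase gene that is active in promyelocytes together with Mpo and Prtn3, did not follow the other 9. It was 360, 445 and 414 in aged spleens and 477, 314 and 468 in young spleens, which overlap, at -0.027 ± 0.24 log2 (limma adjusted p 0.979). Outside the marrow it never fell under 130 in any of the 58 libraries and reached 649, with a median of 261. In choroid plexus it was 130 to 209 and in hippocampus 160 to 422, where Mpo was at most 4.89 and 4.43. In marrow it was 945 to 1586, a median only 5.43 times that of the other libraries, where the same figure was 733 for Prtn3 and 1350 for Mpo. Across the 58 libraries outside the marrow, the correlation of Elane with the other 9 genes on the log2 scale lay between -0.088 and 0.29, and that among the other 9 between 0.15 and 0.94 over 36 pairs. These points share libraries and mice, and the values are given as a description.

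Outside the marrow the level of Elane followed the ribosomal protein genes. Its median Pearson correlation with 78 of them over those 58 libraries was 0.84, against -0.076 for all 12518 genes compared, and it was 0.94 with Rpl30 and 0.89 with Rps21. Among those 12518 genes Rpl30 ranked 4 and Rps21 ranked 31, so Rps21 was not the closest match. The comparison with ribosomal protein genes was chosen after the values were seen. Rps21, which encodes a protein of the small ribosomal subunit, lay at 243 to 1762 in these libraries and the ratio of Elane to Rps21 at 0.324 to 1.06. In marrow that ratio was 1.72 to 3.34, and in the choroid plexus of parabionts 0.482 to 0.720.

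A copy of Rps21 lies beside Elane in the genome. GENCODE M21 (GRCm38) places Elane on chromosome 10 at 79886247 to 79888215 and a processed pseudogene, Gm19810, on the same strand, with 496 bases between the 2. Prtn3 ends 3072 bases before Elane. The pseudogene is shown because its sequence is nearly that of Rps21, whose gene lies on chromosome 2. It is printed as annotated, with capitals for bases identical to the Rps21-201 transcript in a local alignment.
Gm19810, chr10:79888712-79888962 (+): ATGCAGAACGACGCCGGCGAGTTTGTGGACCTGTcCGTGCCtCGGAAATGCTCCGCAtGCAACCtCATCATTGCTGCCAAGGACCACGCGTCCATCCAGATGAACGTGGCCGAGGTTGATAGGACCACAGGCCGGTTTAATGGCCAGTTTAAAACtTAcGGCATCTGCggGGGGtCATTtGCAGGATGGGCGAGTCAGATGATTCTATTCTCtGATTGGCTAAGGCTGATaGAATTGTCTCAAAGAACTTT
Of 249 aligned bases 239 were identical (96.0%), with 90 as the longest unbroken run. The rows of the deposited table are RefSeq transcripts, and whether reads of Rps21 or of its copy entered the Elane row was not tested, since the reads were not used here. Elane is therefore given as an uncertain measure of promyelocytes in these libraries.

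**Figure D5:**
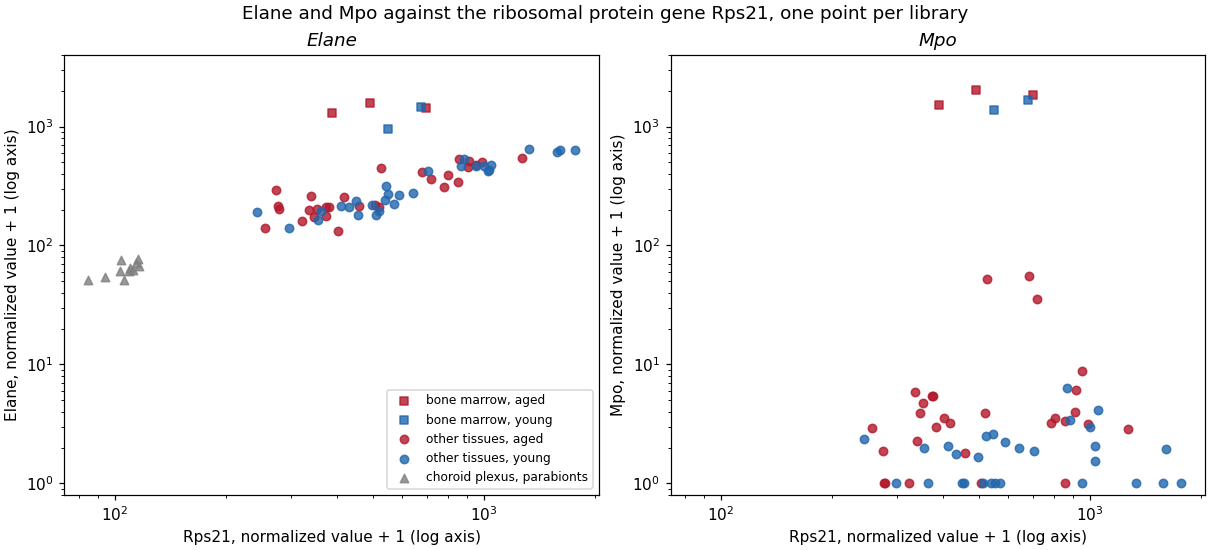
Elane (left) and Mpo (right) against Rps21, each value plus 1 on log axes, one point per library, with squares for bone marrow, circles for other tissues (aged red, young blue) and, for Elane, triangles for parabiont choroid plexus. Outside the marrow Elane rises with Rps21 between 130 and 649, while Mpo stays under 8 except in the 3 aged spleens at 34.4 to 54.6.

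Other genes of granulocytes in aged spleen were described from lists of known markers. Of 9 further primary granule and promyelocyte genes tested, 5 had higher means in aged spleen and none was called. Cst7, a cystatin, was 20.2 ± 1.99 in aged and 8.08 ± 0.717 in young spleens (1.22 log2, limma adjusted p 0.306). Clec12a, an inhibitory lectin receptor, Srgn, the proteoglycan core that packs granule contents, and Ctsc, the protease that activates the granule serine proteases, had 0.97, 0.71 and 0.72 log2 (limma adjusted p 0.383, 0.411 and 0.423). Of 13 further secondary and tertiary granule genes, 11 had higher means and none was called. Cd177, a neutrophil surface protein, was 10.8 ± 1.63 in aged and 1.78 ± 1.51 in young spleens (2.22 log2, limma adjusted p 0.242), Cybb, a subunit of the phagocyte oxidase, had 1.08 log2, Ltb4r1, a leukotriene B4 receptor, 1.97 and Cyba, the partner of Cybb, 0.48 (limma adjusted p 0.306, 0.383 and 0.569).

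Of 15 further mature neutrophil genes tested in spleen, 9 had higher means and none was called. Slpi, a protease inhibitor, and the receptors Fpr2 and Il1r2 had 1.21, 1.72 and 1.88 log2 (limma adjusted p 0.174, 0.306 and 0.378), while G0s2 was 15.1 ± 3.28 in aged and 43.5 ± 22.0 in young spleens (-1.37 log2, limma adjusted p 0.269). Of 14 regulators of granulocyte formation and release, none was called (Csf3r, the G-CSF receptor, stood in this list and in the mature one). Cxcr4, the receptor that holds neutrophils and precursors in the marrow, was 110 ± 20.2 in aged and 40.2 ± 13.8 in young spleens (1.48 log2, limma adjusted p 0.0874), and Lef1, Cebpd and Csf2rb had -0.98, -0.71 and 0.61 log2 (limma adjusted p 0.438, 0.561 and 0.661). One eosinophil granule gene of 5 tested was called: Prg2, major basic protein, was 35.7 ± 6.51 in aged and 4.61 ± 2.62 in young spleens (2.84 ± 0.44 log2, limma adjusted p 0.0196). Epx, Ccr3 and Prg3, of the same cell type, had 0.81, -0.62 and 0.58 log2 (limma adjusted p 0.691, 0.726 and 0.747).

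Most erythroid, platelet and monocyte markers had higher means in the aged spleen, and none was called. Erythroid markers, with identical values of Hba-a1 and Hba-a2 and of Hbb-b2 and Hbb-bt counted once, summed to 13083 to 46809 in aged and 3719 to 20661 in young spleens, 11 of 11 tested had higher means (median 1.58 log2) and none was called. Platelet and megakaryocyte markers summed to 166 to 308 in aged and 82.4 to 117 in young spleens, with 4 of 4 higher (median 1.15 log2) and none called. Monocyte and macrophage markers had 11 of 13 higher (median 0.63 log2), and B cell markers a median of 0.021 log2. Monocyte and macrophage sums were 2154 to 2303 in aged spleens and 983, 1713 and 2042 in young spleens. The part of these cells in the granule gene result was not tested. All young spleen values of these lists include the lung-marked library of young mouse 2, and values without it are not given here.

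In marrow the same lists gave no call. The smallest p-values among primary granule and promyelocyte genes were those of Gstm1 (0.85 log2), Fcnb (0.49), Calr (0.41) and Prss57 (0.54), with limma adjusted p of 0.351, 0.747, 0.747 and 0.792. Among secondary and tertiary granule genes Olfm4, Anxa1, Cd177 and Ceacam10 had 0.65, 0.46, 0.32 and 0.53 log2 (limma adjusted p 0.747, 0.747, 0.826 and 0.860). Mature genes Stfa2l1, Fpr2, Mrgpra2b and Wfdc21 had 0.75, 0.61, 0.66 and 0.53 log2 (limma adjusted p 0.572, 0.635, 0.643 and 0.679). The transcription factors Cebpa and Spi1 (which encodes PU.1) had 0.33 and 0.25 log2, Cxcl2 had 0.76 and Lef1 had -1.25 (limma adjusted p 0.864, 0.864, 0.864 and 0.805). Eosinophil and basophil genes Prss34, Ccr3, Ear10 and Mcpt8 had 0.45, -1.09, -0.70 and 0.45 log2 (limma adjusted p 0.785, 0.785, 0.785 and 0.809).

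Across all 63 tissue libraries, the genes outside the 10 that were most like Elane, Ngp, Lcn2 and S100a8 were ranked by Pearson correlation of log2(value + 1) over 12518 genes with a mean of at least 4. The 10 granule genes themselves were left out of the ranking. Of the rest, Ngp was most like Mcpt8 (r = 0.94), Ms4a3 (0.93), Prss34 (0.93), Fcnb (0.92) and Itgb2l (0.91). S100a8 was, among the rest, most like Mmp8 (0.93), Retnlg (0.93), Ifitm6 (0.93), Trem3 (0.92) and Stfa2l1 (0.91). For Lcn2 they were Chil3 (0.89), Ear1 (0.87), Fpr2 (0.86), Fpr1 (0.86) and Ifitm6 (0.84), and for Elane Prg3 (0.88), Cotl1 (0.86), Osm (0.86) and Mcemp1 (0.85). The 5 marrow libraries stand far from the others and carry much of each value: the rank correlation of Ngp with its 5 genes was 0.45 to 0.62. Libraries of 1 mouse are also not independent.

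In the choroid plexus of joined mice, none of the 9 genes was called in any of the 4 comparisons, of 13280 genes tested. S100a8 was 15.4, 17.045 and 23.6 in old isochronic mice and 9.28, 11.0 and 11.6 in young isochronic mice, which do not overlap, at 0.75 ± 0.27 log2 (limma adjusted p 0.733). S100a9 was 29.8, 23.0 and 20.9 in old isochronic and 14.4, 9.39 and 18.2 in young isochronic mice, also apart, at 0.80 ± 0.29 log2 (limma adjusted p 0.686). Between these groups 4 of the 9 genes (Ngp, Ltf, S100a8 and S100a9, of which Ltf was not tested) lay higher without overlap, against 5.72% of all genes, and 20 genes (0.151%) were called higher and 5 (0.0377%) lower, with 2 of the 9 and 664 of all genes at an unadjusted p under 0.05. Ngp and Lcn2 reached the minimum value in the parabionts only because of the old libraries. Young parabionts held at most 3.48 of Ngp and 3.09 of Lcn2. Mpo was 0 in all 11 libraries, and Ngp was 1.57 to 5.91, while Elane was 50.4 to 75.6.

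Old heterochronic mice had 21.4 and 17.7 of S100a8, against 9.06, 15.0 and 11.6 in young heterochronic mice, at 0.70 ± 0.31 log2 (limma adjusted p 0.540), and 3 of the 9 genes (2 of the 5 tested) lay higher without overlap, against 11.0% of all genes (0.113% called higher). Against old isochronic mice, old heterochronic mice differed in S100a8 by 0.080 ± 0.31 log2 (limma adjusted p 0.968), with 2 genes higher without overlap (Prtn3 and Elane, of which Prtn3 was not tested), against 14.1% of all genes (0.00% called higher). Young heterochronic mice differed from young isochronic mice in S100a8 by 0.13 ± 0.27 log2 (limma adjusted p 0.972), with 1 gene higher without overlap, against 4.95% of all genes (0.00% called higher). The comparisons share their isochronic and heterochronic groups and are not independent of each other. None of all genes was called against the isochronic groups, where 1182 genes in old and 860 in young mice had an unadjusted p under 0.05, and 1 of the 9 in each, Elane.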

How the data were processed

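Expression was measured by RNA sequencing in 63 tissue and 11 choroid plexus libraries of parabionts (74 of 75 listed samples; the marrow of young mouse 1 is not analysed here). The deposited values are signal values per RefSeq transcript, judged from their steps to be weighted reads divided by 1 factor per library. Reads were aligned to mm9 with TopHat, per the submitters' processing notes, and no label or header names the counter, the versions or the scaling. Between 77.2% and 86.1% of values came out whole (within 0.001) when divided by the value of 1 read, so no count test was run. One column of the tissue table matched no listed sample and was not used. Rows carry RefSeq accessions, and each of the 10 genes had 1 row; loci and promoters are from RefSeq (GRCm38.p6).

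Aged and young libraries were compared per tissue with limma 3.58.1 in R 4.3.3 (trend, robust, two-sided) on log2(value + 1), for genes with a value of at least 4 in as many libraries as the smaller group had, with Benjamini-Hochberg adjustment over all genes tested and a call under 0.05. The parabionts were fitted as 4 groups together. In the interaction model the mouse was a fixed term. The spleen and marrow fits, the spleen against marrow contrast and the old against young isochronic contrast were tested on simulated data. The fits of the other tissues and the other contrasts were not. The labels number the mice separately, so p-values measure the spread between these mice. Mice of the 2 ages with the same number are different animals, and the deviations of same-numbered libraries correlated at -0.206 to 0.179, so the numbers pair no samples. Alternatives were other pseudocounts (4 and 0.05), no minimum, quantile normalization, no trend, a replicate block, and leaving out each mouse.

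The 10 genes and the marker lists were chosen with earlier results of these data known. Named beside the 10 genes were up to 4 genes of each granulocyte list with the smallest p in spleen and in marrow, and the 5 genes most like Elane, Ngp, Lcn2 and S100a8, of which 1 is not reported here. Promoters were searched in Python 3.11.15, and the pseudogene was aligned with Biopython 1.88.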

Additional observations from a re-analysis of the deposited data

How the results depend on the processing

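The number of granule genes called in spleen was 6 and lay between 4 and 9 under every alternative run: 7 with a pseudocount of 4, 6 with 0.05, 6 without a minimum, 7 with quantile normalization, 4 without the trend, 7 with a replicate block and 4 to 9 with 1 mouse left out. In marrow, cervical and inguinal nodes, thymus, colon, hippocampus, choroid plexus and the 4 parabiont comparisons it was 0 under all alternatives run, as in the difference of the age effect between nodes and marrow. In mesenteric nodes, where 1 was called, it was 2 with a pseudocount of 4, 0 without a minimum, 0 without the trend, 0 with a replicate block and 0 to 3 with 1 mouse left out. In lung it was 0, and 0 to 1 with 1 mouse left out. In liver it was 0, and 1 with a replicate block. For the difference of the age effect between spleen and marrow it was 0 in the model over all tissues, 3 with a pseudocount of 4, 2 with quantile normalization, 0 to 2 with 1 mouse left out and 7 with the 2 tissues alone. It was 8 with the 2 tissues alone and no young mouse 2, an alternative chosen after seeing the data. The cause of these changes was not tested.

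Some differences near 0 turned sign: in marrow, Ltf with quantile normalization (-0.13 log2), Elane without young mouse 2, and S100a9 without aged mouse 3 or young mouse 2. With 1 mouse left out, marrow Elane ranged over -0.028 to 0.60 log2 and S100a9 over -0.17 to 0.13. In spleen, Elane turned sign without aged mouse 1, young mouse 1 or young mouse 3, over a range of -0.22 to 0.077. Counts of all genes called were less stable: 18 in spleen (8 to 61), 5 in marrow (0 to 124), 4 in mesenteric nodes (1 to 23), 25 in cervical nodes (1 to 224), 0 in inguinal nodes (0 to 28), 125 in thymus (0 to 262), 3 in lung (1 to 40), 2 in liver (0 to 227), 12 in colon (0 to 43), 0 in hippocampus (0 to 11) and 31 in choroid plexus (5 to 57). They were 0 for both differences of the age effect (0 to 57 for spleen and 0 to 37 for nodes against marrow), 25 for old against young isochronic mice (2 to 44), 19 for old against young heterochronic mice (1 to 61), 0 for young heterochronic against isochronic mice (0 to 6) and 0 for the old pair (0 to 77). Where leaving out a mouse left 1 library in a group, that library was assumed to vary like the other groups. Depth limits the low values most: in young spleens, where 1 read was worth 0.800 to 1.06, Mpo, Prtn3 and Ctsg rest on about 3 reads or fewer. No paired analysis was possible for the parabionts because their numbers are not shared, nor beside the mouse term of the model over all tissues.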
